A study of Mus musculus with 6 samples.

Results

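The genes described here encode Wnt ligands, Frizzled receptors and secreted Wnt antagonists, read in mouse breast cancer cells sorted by 2 surface proteins. They were chosen by a rule on names, which uses no measured value but was set with earlier results of these data known, as the probe sets with exactly 1 gene symbol in the platform annotation that is Wnt, Fzd, Sfrp or Dkk followed by a number and, in some, the letter a or b. This gave 73 of the 45037 probe sets that are not controls, and 37 of 18193 genes: 19 Wnt genes (32 probe sets), 10 Fzd genes (26), 4 Sfrp genes (9) and 4 Dkk genes (6). The cells were CD24+CD29+, carrying both the glycoprotein CD24 and the integrin chain CD29, or CD24-CD29-, lacking both, with 3 arrays of each. Both groups were cultured in the same serum-containing medium, carry the cell type label breast cancer stem cells, and are given with no line, tumour of origin, genotype, strain or added agent. The submitters describe the sets of samples as independent, but no label ties them to separate cultures or animals, so p-values measure the spread between these samples, which may in part be technical.

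Wnt proteins are secreted, lipid-modified ligands. They bind the cysteine-rich domain of Frizzled receptors, and with the co-receptors Lrp5 or Lrp6 they stop the destruction of beta-catenin, which then acts on genes together with Tcf and Lef factors. Other Wnt and Frizzled pairs act on cell polarity and calcium. Sfrp proteins carry a Frizzled-like domain that can capture Wnt ligands, and Dkk proteins block the co-receptors. In the mammary gland this signalling is known for its part in ductal branching and the upkeep of basal stem cells, and its activation by viral insertion beside Wnt genes is a classic cause of mouse mammary tumours.

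Each of the 6 arrays had a mean of 6.93 on the log2 scale, while the standard deviation over probe sets was 2.10 to 2.14 on CD24+CD29+ arrays and 2.01 to 2.03 on CD24-CD29- arrays. Arrays of 1 group correlated at r = 0.997 to 0.998 over probe sets, and arrays of different groups at 0.974 to 0.979. The 24 probe sets of the poly-A control RNAs had medians that were higher by 1.22 on CD24-CD29- arrays. Scaling to them moved the median difference of all genes from -0.04 to 1.19 and turned every lower Wnt, Fzd, Sfrp and Dkk gene positive, so each direction below holds for the deposited scale only, where it says how a gene stood among the rest. Epithelial markers were bright in both groups, with Epcam at 14.11 ± 0.02 and 14.13 ± 0.02 and Krt8 at 13.50 ± 0.02 and 13.67 ± 0.01 in CD24+CD29+ and CD24-CD29- cells (mean ± SD, n = 3). A dimmer Epcam probe set was lower by 0.83 in CD24+CD29+ cells. In sorted bulk cells, fewer cells of a type and less RNA per cell cannot be told apart.

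A gene was read at its brightest probe set, passing over names ending in _x_at (probes that may also bind other transcripts) if it had another. A positive difference (log2) means a higher signal in CD24+CD29+ cells. Its standard error (SE) comes from a limma fit over all probe sets, and a gene passed at a Benjamini-Hochberg adjusted p under 0.05. Most genes of the series passed: 12540 of 18193, or 68.9%, with 33.4% higher and 35.5% lower in CD24+CD29+ cells. Of the 37 genes, 31 passed (83.8%), 14 as higher and 17 as lower, with a median of -0.09 against -0.04 for all genes. The groups did not overlap for 32 of the 37, and this was so for 73.6% of all genes. By probe set, 49 of 73 passed (67.1%, against 63.9% of all probe sets), 25 as higher and 24 as lower, where 29.2% and 34.8% of all probe sets were. Groups did not overlap for 49 of the 73, and for 68.2% of all probe sets. By probe set the shares lie near those of the whole array.

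A difference of at least 1.5-fold beside the threshold was found for 9 of the 37 genes (24.3%, against 17.8% of all genes). Higher in CD24+CD29+ cells were 7 of them (11.7% of all genes met this): the ligands Wnt10a, Wnt11 and Wnt4, the receptors Fzd1 and Fzd2, and the antagonist genes Sfrp2 and Dkk3. Lower were 2 receptors, Fzd3 and Fzd5 (6.07% of all genes). Just short of that size lay Wnt5b at 1.49-fold higher and Sfrp4 at 1.48-fold lower. Quantile normalization reduced the 7 higher genes to 4, with Dkk3 at 1.45, Sfrp2 at 1.26, Wnt10a at 0.93 and Wnt11 at 0.80. The other 3 still passed there, Fzd1 at 0.55, Fzd2 at 0.53 and Wnt4 at 0.45. Median centring raised the count to 10, adding Wnt5b at 0.63, Fzd6 at 0.60 and Wnt7b at 0.59.

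**Figure D1:**
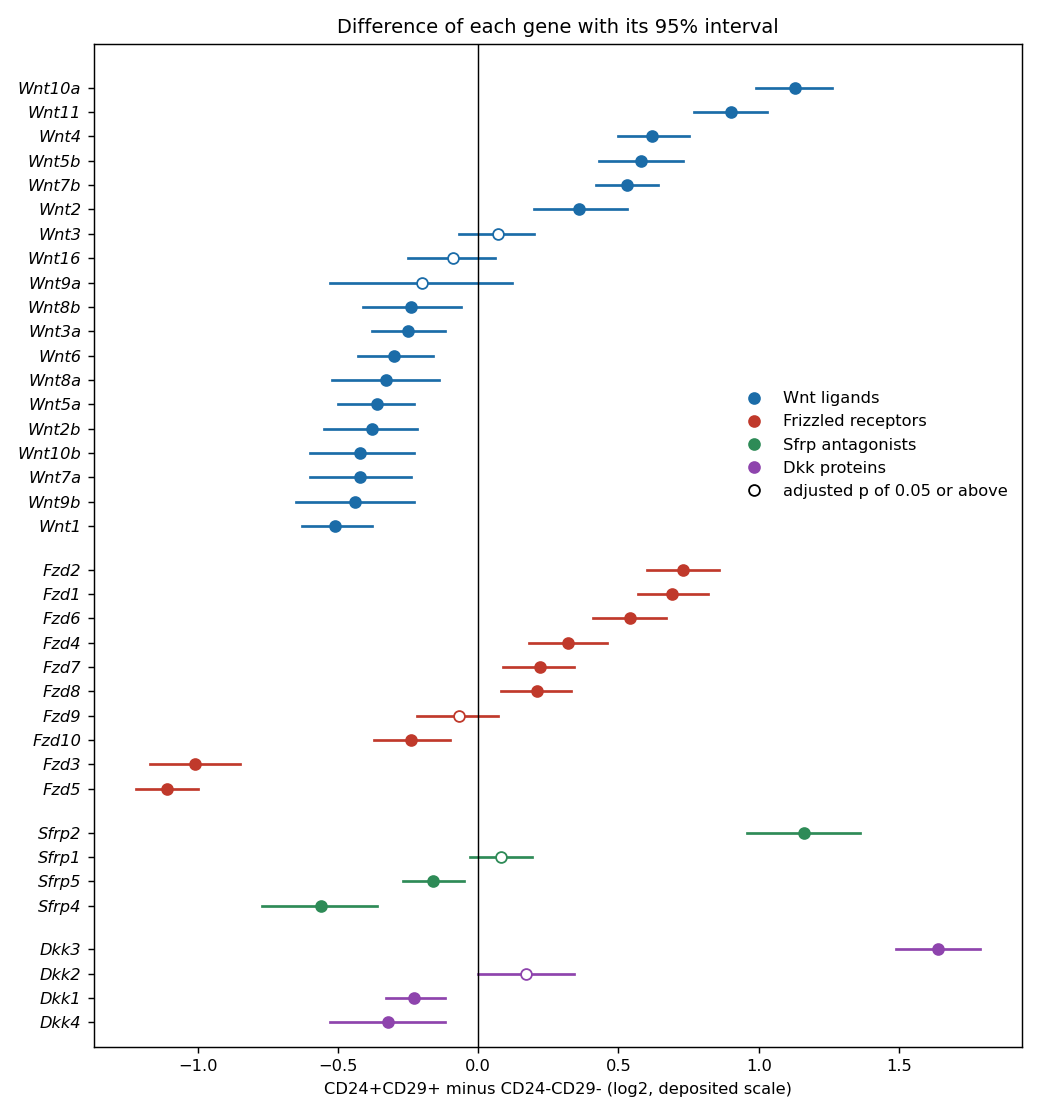
Difference between the groups (x axis, log2, deposited scale) for the 37 genes, 1 probe set each, grouped by family, with bars for the 95% interval of the limma fit (3 arrays a group) and open circles for genes that did not pass. Dkk3 at 1.64 is farthest to the right and Fzd5 at -1.11 farthest to the left; every lower gene turns positive when arrays are scaled to the poly-A controls.

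Promoter sequences are shown for 3 of the genes the results turn on, a pair of ligands that were higher and the receptor with the largest fall, because canonical Wnt signalling acts through Tcf and Lef factors, whose sites hold the letters CTTTGAA or CTTTGAT. They are the 250 bases before the start of the gene in RefSeq on mouse build GRCm38.p6, printed 5′ to 3′ on the gene's strand, with a match on either strand in capitals. The Wnt11 window is chr7:98834862-98835111 (plus strand, the first of 2 starts listed), that of Wnt4 is chr4:137277385-137277634 (plus strand) and that of Fzd5 is chr1:64737751-64738000 (minus strand).
Wnt11: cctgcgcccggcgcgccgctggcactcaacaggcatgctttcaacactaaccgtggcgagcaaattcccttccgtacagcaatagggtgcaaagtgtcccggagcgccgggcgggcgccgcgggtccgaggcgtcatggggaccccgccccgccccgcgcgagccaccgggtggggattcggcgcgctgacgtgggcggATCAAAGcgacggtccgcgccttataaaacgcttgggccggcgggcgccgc
Wnt4: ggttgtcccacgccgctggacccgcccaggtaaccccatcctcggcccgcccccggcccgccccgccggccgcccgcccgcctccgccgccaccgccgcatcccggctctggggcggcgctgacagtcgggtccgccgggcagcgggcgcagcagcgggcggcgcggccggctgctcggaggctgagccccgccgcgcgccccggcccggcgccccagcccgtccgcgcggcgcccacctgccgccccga
Fzd5: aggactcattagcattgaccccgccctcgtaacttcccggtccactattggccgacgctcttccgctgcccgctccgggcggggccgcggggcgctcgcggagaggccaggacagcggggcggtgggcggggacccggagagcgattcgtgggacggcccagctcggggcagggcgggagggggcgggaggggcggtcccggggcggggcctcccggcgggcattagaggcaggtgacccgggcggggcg
The Wnt11 window holds 1 match, ATCAAAG, which is CTTTGAT read on the other strand, and those of Wnt4 and Fzd5 hold none. Promoters were matched by symbol for 25 of the 37 genes, with 28 windows in all. The other 12 genes were not searched, among them Dkk3, Wnt10a, Fzd2 and Fzd3, which differed by at least 1.5-fold. Either motif was in 3 of the 28 windows (10.7%), those of 1 start of Wnt11, of 1 start of Wnt5b and of Dkk1. The window of the other Wnt11 start held none. Of all 32851 windows of the same length, 7.48% held either motif. The windows were rich in G and C: a gene held a median of 22 CG pairs, against 13 for all array genes with a promoter, and the Wnt11, Wnt4 and Fzd5 windows above held 37, 44 and 32. A match is a string of letters and not a measured binding site.

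Ligands fell into a bright group that was mostly higher and a dim group that was mostly lower in CD24+CD29+ cells. The dim range was set by 81 probe sets of odorant, vomeronasal and trace amine receptor genes, which mammary cells are not known to use; their mean signals ran from 4.23 to 6.71. Signal depends on each probe, so it ranks no gene's RNA against another's. Of the 6 Wnt genes with a signal above that range, 5 were higher and 1 was lower, with a median of 0.60, and of all 9987 genes above it 75.6% passed, 51.9% as higher and 23.7% as lower.

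Wnt10a, a ligand of the beta-catenin branch, had the largest difference among the ligands. Its only probe set (1460657_at) read 9.49, 9.38 and 9.49 on the CD24+CD29+ arrays and 8.31, 8.39 and 8.28 on the CD24-CD29- arrays. The groups stood apart by far more than their spread, and the ligand was 2.18-fold higher (log2 1.13, SE 0.06, limma adjusted p = 1.2e-06). Wnt11, best known for branches outside beta-catenin, read 7.47, 7.49 and 7.61 against 6.60, 6.62 and 6.66 (1450772_at), and was 1.86-fold higher (log2 0.90, SE 0.06, limma adjusted p = 3.2e-06). The CD24-CD29- values of Wnt11 lay inside the dim range.

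Wnt4, which the hormone progesterone induces in the mammary gland and which drives side branching, was 1.54-fold higher. It read 9.83, 9.81 and 9.91 on CD24+CD29+ arrays and 9.17, 9.28 and 9.24 on CD24-CD29- arrays (1450782_at; log2 0.62, SE 0.05, limma adjusted p = 2.1e-05). Its second probe set was also higher, by 0.35. Wnt7b, made by mammary epithelium and the ligand with the brightest probe set, read 10.72, 10.68 and 10.71 against 10.15, 10.19 and 10.18 (1420892_at), a difference of 0.53 (SE 0.05, limma adjusted p = 2.3e-05). A second and dim Wnt7b probe set, at a mean of 5.39, differed by 0.06 with a 95% interval of -0.09 to 0.21. Wnt5b, a ligand of the polarity and calcium branches, was higher on both of its probe sets, by 0.58 on its main one and by 0.78 on a brighter one ending in _x_at. On the main probe sets of these 5 ligands the groups did not overlap, as for 73.6% of all genes; on the dim Wnt7b probe set they did.

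**Figure D2:**
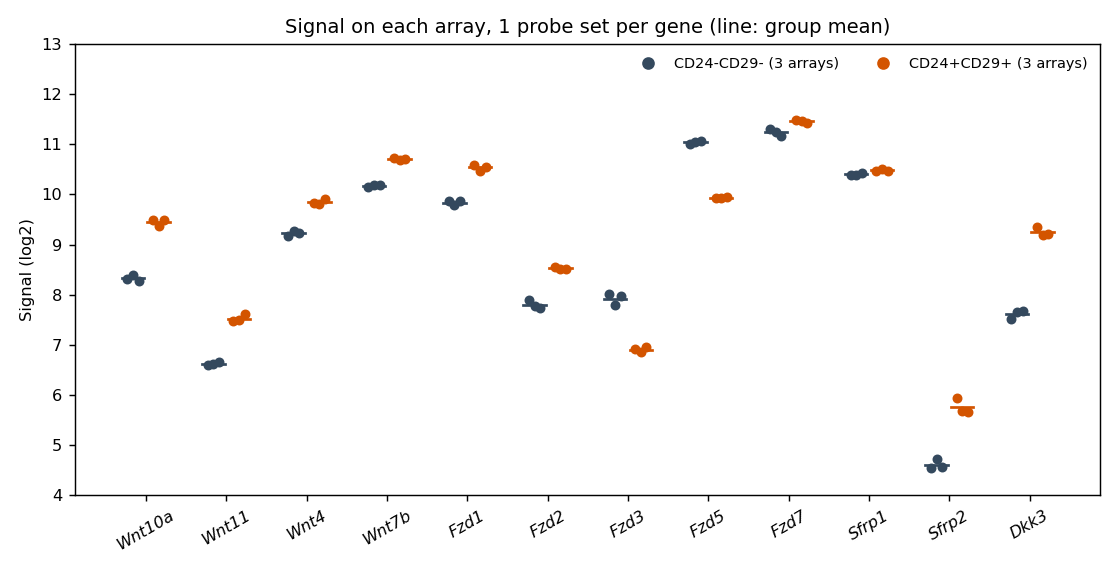
Signal (y axis, log2) on each of the 6 arrays, with points for single arrays and lines for group means. Shown are the genes that passed with at least 1.5-fold and the brightest gene of each family. The groups do not overlap for any gene shown, as for 73.6% of all genes, and most were picked by the size of their difference. The gap is narrowest for Sfrp1, at 10.46 to 10.51 against 10.38 to 10.42.

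Wnt7a was the exception among the ligands above the dim range, lower by 0.42 on its brightest probe set, whose mean of 6.83 lay just above that range (adjusted p = 0.0015 by limma, 3 arrays a group). Its other 2 probe sets, at 5.44 and 4.57, did not pass, with differences of -0.02 and 0.00. Quantile normalization and cyclic loess left the Wnt7a call in place.

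The other 13 Wnt genes had signals between 4.37 and 6.17, within the dim range. Of these 1 was higher, 9 were lower and 3 did not pass; their median was -0.30. Dim probe sets in general leaned the same way: of all 8206 genes in the range 60.8% passed, 11.0% as higher and 49.9% as lower, with a median of -0.19, and of the 81 receptor probe sets 3 were higher and 40 lower, with differences from -0.62 to 0.30 and a median of -0.19. All 9 lower ligands lay inside that span of differences. Their values are Wnt1 at -0.51, Wnt9b at -0.44, Wnt10b at -0.42, Wnt2b at -0.38, Wnt5a at -0.36, Wnt8a at -0.33, Wnt6 at -0.30, Wnt3a at -0.25 and Wnt8b at -0.24. Wnt1, Wnt3 and Wnt10b are the ligands that mouse mammary tumour virus activates by insertion; Wnt1 read 5.63, 5.66 and 5.77 against 6.16, 6.22 and 6.20 (1425377_at). Neither group's Wnt1 values left the dim range, nor did those of Wnt3, at 4.33 to 4.44 and 4.29 to 4.41, which did not pass (0.07, 95% interval -0.07 to 0.20).

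Wnt2 was the only ligand within the dim range that was higher. It read 5.45, 5.51 and 5.62 in CD24+CD29+ cells against 5.28, 5.07 and 5.14 (1449425_at), a difference of 0.36 (SE 0.07, limma adjusted p = 0.0020), above the highest of the receptor probe sets. Wnt16 at -0.09 and Wnt9a at -0.20 did not pass, with 95% intervals of -0.25 to 0.06 and -0.53 to 0.12. Wnt9a was the noisiest of the 37 genes, with an SE of 0.14. Wnt5a, the partner of Wnt5b in sequence and in its branch of signalling, was lower on 3 of its 4 probe sets, all of them dim. Quantile normalization or cyclic loess ended the calls of Wnt3a, Wnt8a and Wnt8b, and the Wnt8b call was also lost under median centring and without any one of 4 arrays: CD24+CD29+ replicate 1 or 2, or CD24-CD29- replicate 2 or 3.

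**Figure D3:**
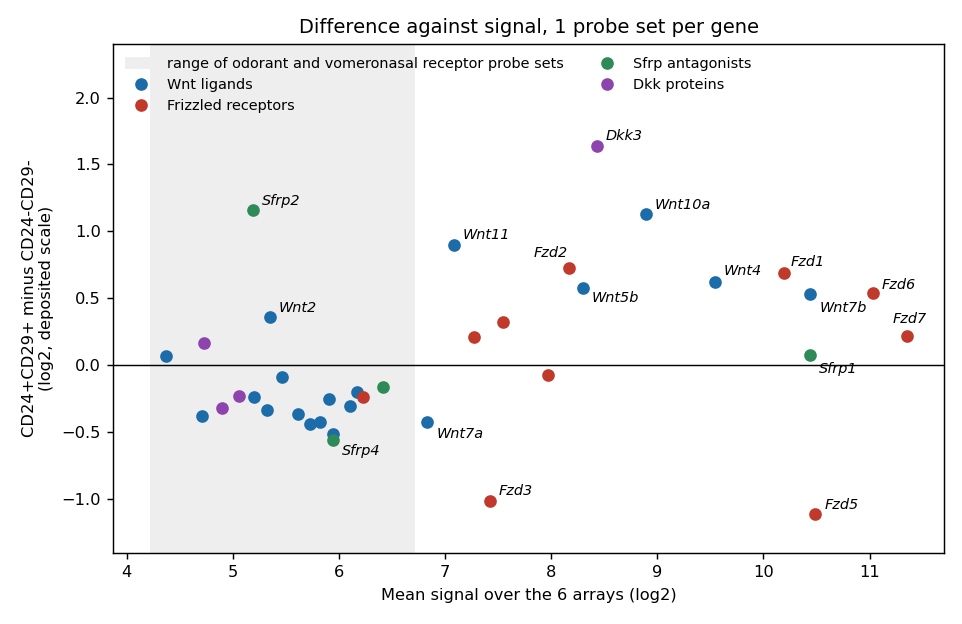
Difference (y axis, log2, deposited scale) against mean signal over the 6 arrays (x axis, log2), 1 point a gene and 1 colour a family; the shaded band is the range of signals of 81 odorant and vomeronasal receptor probe sets, 4.23 to 6.71. Of the 20 genes in the band 14 were lower and 2 higher, beside 49.9% and 11.0% of all genes in it. Of the 17 to its right 12 were higher and 3 lower, beside 51.9% and 23.7% of all genes there. Scaling to the poly-A controls turns the lower Wnt, Fzd, Sfrp and Dkk genes positive.

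Several Wnt genes lie beside each other in the mouse genome, in the gene order of RefSeq for GRCm38.p6, and neighbours did not share a direction throughout. On chromosome 1, Wnt10a was higher by 1.13 while its neighbour Wnt6 was lower by 0.30 on its main probe set and higher by 0.25 on one ending in _x_at. On chromosome 15, Wnt10b and Wnt1 were both lower. On chromosome 11, Wnt9b was lower beside Wnt3, which did not pass, and Wnt3a was lower beside Wnt9a, which did not pass either.

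Among the Frizzled receptors, 6 of 10 genes were higher, 3 were lower and 1 did not pass (median 0.21), where 33.4% of all genes were higher and 35.5% lower; the 3 lower genes turned positive when scaled to the poly-A controls. The 9 genes other than Fzd10 had a signal above the dim range, and of these 6 were higher (66.7%) and 2 lower (22.2%), beside 51.9% and 23.7% of all genes above it. Fzd2 was higher on all of its 3 probe sets. Its main probe set (1418533_s_at) read 8.56, 8.52 and 8.51 in CD24+CD29+ cells against 7.90, 7.77 and 7.74 and was 1.66-fold higher (log2 0.73, SE 0.06, limma adjusted p = 1.1e-05), and the others gave 1.09 and 0.75. Fzd1, its close relative, read 10.58, 10.47 and 10.55 against 9.88, 9.79 and 9.87 (1437284_at) and was 1.62-fold higher (log2 0.69, SE 0.06, limma adjusted p = 1.2e-05). A dim second Fzd1 probe set was higher by 0.30.

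Fzd7, a receptor known from basal mammary stem cells, also belongs to that subfamily and had the brightest probe set of the receptors. The values were 11.49, 11.46 and 11.42 against 11.31, 11.25 and 11.17 (1450044_at). Its difference was small, 0.22 (SE 0.06, limma adjusted p = 0.0081), and fell short of the threshold after cyclic loess, at 0.13, and when the mean of its probe sets was taken, at 0.08. Fzd6, which acts in planar polarity, was higher by 0.54 on a probe set with a mean of 11.03 (SE 0.06, limma adjusted p = 5.2e-05). A dim Fzd6 probe set was higher by 0.44 and another lower by 0.46. Fzd4, a receptor of Wnt ligands and of norrin, was higher by 0.32 and Fzd8 by 0.21. Both calls were lost after quantile normalization, at 0.15 and 0.07. Another Fzd4 probe set was higher by 0.34, while a dim Fzd4 probe set and a dim Fzd8 one did not pass, at -0.04 and -0.02. Fzd9 did not pass (-0.07, 95% interval -0.22 to 0.07), but was lower by 0.27 and passed after quantile normalization or cyclic loess. Fzd10, dim at 6.23, was lower by 0.24, and its dimmer second probe set did not pass, at -0.02.

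Fzd5 and Fzd3 went the other way. Fzd5 had the largest fall of the 37 genes, at 9.93, 9.93 and 9.95 in CD24+CD29+ cells against 11.01, 11.05 and 11.07 in CD24-CD29- cells (1455604_at). The arrays of a group lay close together (SD 0.01 and 0.03), and the groups differed by 2.16-fold (log2 -1.11, SE 0.05, limma adjusted p = 5.8e-07). The second Fzd5 probe set, with a mean of 7.27, did not show it (-0.09, 95% interval -0.27 to 0.09). Fzd3, known from axon guidance and polarity, read 6.92, 6.86 and 6.96 against 8.01, 7.79 and 7.98 (1450135_at) and was 2.01-fold lower (log2 -1.01, SE 0.07, limma adjusted p = 5.5e-06). Of its 6 probe sets 3 were lower, the others at -0.73 and -0.28, and 3 did not pass, with differences of -0.03 to 0.11. The mean of the probe sets left smaller but passing falls, -0.60 for Fzd5 and -0.32 for Fzd3. Scaling to the poly-A controls turned both positive, to 0.11, which did not pass, and 0.21.

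**Figure D4:**
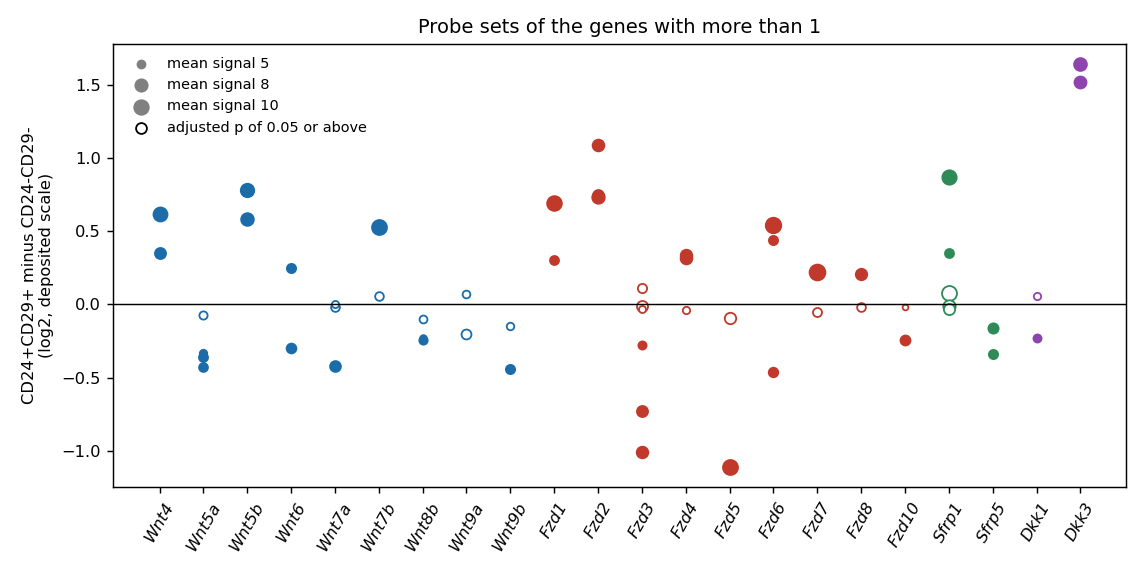
Difference (y axis, log2, deposited scale) of every probe set of the 22 genes that have more than 1 (x axis); point size grows with mean signal and open points did not pass. Fzd3, Fzd5 and Sfrp1 each hold a probe set with a clear difference beside others near 0, and Fzd6 and Wnt6 hold probe sets that passed in opposite directions, which scaling to the poly-A controls turns to 1 direction.

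The deposited values did not read all probe sets of a gene alike. Of the 22 genes with several probe sets, 6 had all of them pass in 1 direction (Wnt4, Wnt5b, Fzd1, Fzd2, Sfrp5 and Dkk3), 13 had some that passed and some that did not, 2 had passing probe sets in both directions (Wnt6 and Fzd6), and for Wnt9a none passed. The other 15 genes, Wnt10a, Wnt11 and Sfrp2 among them, rest on 1 probe set.

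Of the 4 Sfrp genes 1 was higher, 2 were lower and 1 did not pass, where 33.4% of all genes were higher and 35.5% lower. The 3 other than Sfrp1 had signals within the dim range, where 11.0% of all genes were higher and 49.9% lower. Sfrp2 was 2.23-fold higher in CD24+CD29+ cells, at 5.95, 5.68 and 5.67 against 4.55, 4.73 and 4.56 (1448201_at; log2 1.16, SE 0.09, limma adjusted p = 9.4e-06). All 6 values lay within the dim range, yet the difference is far outside the span of the receptor probe sets, whose highest was 0.30. Sfrp4 was lower by 0.56 and Sfrp5 by 0.16 and, on a second probe set, by 0.34. These signals were within the dim range and the falls inside the span of the receptor probe sets, -0.62 to 0.30, of which 40 of 81 were lower, and scaling to the poly-A controls turned both genes positive. The Sfrp5 call at the main probe set was lost under median centring, at -0.11, and without replicate 3 of either group.

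Sfrp1, an antagonist often silenced in breast cancer, was bright in both groups, and its probe sets disagreed. The brightest (1448395_at) read 10.46, 10.51 and 10.47 in CD24+CD29+ cells against 10.38, 10.39 and 10.42, so the groups did not overlap, but the difference of 0.08 did not pass (SE 0.05, limma adjusted p = 0.17, 95% interval -0.03 to 0.19), and after quantile normalization it was -0.05. The next (1428136_at) read 10.33, 10.25 and 10.31 against 9.47, 9.44 and 9.37 and was 1.83-fold higher (log2 0.87, SE 0.05, limma adjusted p = 2.8e-06). A dim probe set was higher by 0.35, and the other 2 did not pass, at -0.01 and -0.03. With the mean of the 5 probe sets Sfrp1 passed as higher, by 0.25.

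Dkk3 had the largest difference of the 37 genes. It is a divergent member of its family, and its action on Wnt signalling is less clear than that of Dkk1. Its main probe set (1448669_at) read 9.35, 9.19 and 9.21 in CD24+CD29+ cells against 7.52, 7.66 and 7.67 in CD24-CD29- cells, making it 3.11-fold higher (log2 1.64, SE 0.07, limma adjusted p = 4.6e-07). The second probe set (1417312_at) gave nearly the same, at 8.51 ± 0.04 against 6.99 ± 0.07 (SD, n = 3), a log2 difference of 1.52 (SE 0.06). Both lie above the dim range in each group.

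The other Dkk genes were dim, with means of 4.73 to 5.06. Dkk1, the inhibitor of Lrp5 and Lrp6, was lower by 0.23 and Dkk4 by 0.32, within the span of the receptor probe sets. Both calls were lost after quantile normalization, at -0.10 and -0.21, and scaling to the poly-A controls turned both positive. A second Dkk1 probe set did not pass, at 0.06. Dkk2 did not pass (0.17, 95% interval 0.00 to 0.34), but passed as higher, by 0.22, after median centring and, by 0.27, after quantile normalization.

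Markers of other cell types were read in the same fit. Of all genes above the dim range 51.9% were higher and 23.7% lower, and within it 11.0% and 49.9%. All 9 fibroblast markers were higher in CD24+CD29+ cells (median 0.59), with Col1a2 by 2.02, Lum by 1.48 and Dcn by 1.15. The summed signal of the 9 was 14.78 to 14.88 on the log2 scale on CD24+CD29+ arrays against 14.22 to 14.24. Postn, the brightest of the 9 at 14.05, was higher by 0.43, and 1 of the 9 had a signal within the dim range. Of 6 basal markers 5 were higher and 1 was lower (median 0.73; summed signal 14.68 to 14.75 against 14.01 to 14.04), and of 8 luminal markers 1 was higher and 5 were lower (median -0.22; 15.36 to 15.41 against 15.58 to 15.60). Among the luminal markers Esr1 was higher by 1.11, and Elf5 and Krt19 were lower by 0.97 and 0.95, each on its brightest probe set. No basal or luminal marker had a signal within the dim range. Leukocyte markers, 4 of 6 lower, summed to 8.49 to 8.62 against 9.04 to 9.05. Signals of 4 of these 6 lay within the dim range, among them Ptprc, the marker of all leukocytes, at 4.89. Endothelial markers, all 5 within the dim range, summed to 7.73 to 7.88 against 7.65 to 7.90, and 3 adipocyte markers, also dim, to 7.54 to 7.66 against 7.08 to 7.20. The part of these cell types in the differences of the Wnt, Fzd, Sfrp and Dkk genes was not tested.

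The rest of the pathway was read through 8 lists. Of their 131 genes 125 were measured, and 52 were higher, 38 lower and 35 did not pass. Their median was 0.04 against -0.04 for all genes, of which 33.4% were higher and 35.5% lower. Of the 125, 36 had signals within the dim range. Above that range 51.9% of all genes were higher and 23.7% lower, and within it 11.0% and 49.9%. Both secretion genes were higher: Porcn, the enzyme that attaches the lipid, by 1.87-fold (10.08 ± 0.01 against 9.18 ± 0.24, SD, n = 3), and Wls, the carrier that brings Wnt proteins to the surface, by 0.19 on its brightest probe set and by 0.68 and 0.59 on the next ones. Of 6 co-receptors 5 were higher and 1 did not pass (median 0.47), and 2 of the 6 had signals within the dim range. Ryk was higher by 2.21-fold on its brightest probe set, though its other 2 did not pass. Ror1 and Ror2, receptors of Wnt5-type ligands, were higher by 0.84 and 0.58. The other 2 Ror1 probe sets, both dim, did not pass, at 0.02 and -0.21, and the second of Ror2 was higher by 0.34. Lrp6 was higher by 0.22 and Lrp5, dim at 5.75, did not pass (-0.11).

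Of 11 antagonists outside the Sfrp and Dkk names, 7 were higher, 2 lower and 2 not past the threshold (median 0.39), and 6 of the 11, Frzb among them, had signals within the dim range. Of all genes 51.9% were higher above that range and 11.0% within it. Sostdc1, an inhibitor of Wnt and BMP signals, was higher by 1.89-fold, from 10.45 ± 0.03 to 11.37 ± 0.04 (SD, n = 3), and Wif1, which captures Wnt ligands, by 1.52-fold. Kremen1, a receptor for Dkk proteins, was higher by 0.56, and Frzb, a secreted Frizzled-like protein, was lower by 0.40. Of 9 genes of the R-spondin axis, which strengthens Wnt signals at the receptor, 3 were higher, 4 lower and 2 did not pass. Signals of 5 of the 9 lay within the dim range, where 49.9% of all genes were lower. The ligand Rspo1 was lower by 0.88, within the dim range, and the receptor Lgr5 was higher by 1.71.

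Inside the cell the lists were divided. Of 30 cytoplasmic genes 7 were higher, 10 lower and 13 did not pass (median -0.05). Signals of 6 of the 30 lay within the dim range. Above that range 51.9% of all genes were higher and 23.7% lower, and within it 11.0% and 49.9%. Axin2, a scaffold of the beta-catenin destruction complex and a widely used target gene of the pathway, was 1.57-fold lower, at 6.94 ± 0.03 against 7.59 ± 0.13 (SD, n = 3; log2 -0.65, SE 0.07, limma adjusted p = 6.3e-05), and its dim second probe set did not pass (0.05). Ctnnb1, which encodes beta-catenin, was higher by 0.28 on a probe set near the top of the scale (13.64), and by 0.78 and 1.77 on dimmer ones.

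Of 19 nuclear genes 7 were higher, 8 lower and 4 did not pass (median -0.06). Here 3 of the 19 had signals within the dim range, and above it 51.9% of all genes were higher and 23.7% lower. The factors Tcf7l1 and Tcf7l2 were lower by 2.01-fold and 1.74-fold on their brightest probe sets, and Bcl9, a partner of beta-catenin, by 2.26-fold, with its second probe set at -1.11. For Tcf7l2 the next probe sets gave smaller falls, -0.17 and -0.18, and the fourth did not pass. The co-repressor genes Tle1 and Ctbp2 were higher by 1.70-fold and 1.61-fold. Lef1, a partner factor of beta-catenin, was lower by 0.18 on its brightest probe set, within the dim range and just inside the threshold (95% interval -0.33 to -0.02), and by 0.17 on a dimmer one.

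Canonical target genes did not move as 1 group. Of 24 measured, 12 were higher, 8 lower and 4 did not pass (median 0.12), and 10 of the 24 had signals within the dim range. Above that range 51.9% of all genes were higher and 23.7% lower, and within it 11.0% and 49.9%. Lgr5 and Cd44 (1.59-fold) were higher and Axin2 was lower by at least 1.5-fold, each on its brightest probe set. Among the feedback inhibitors in the list other than Axin2, Nkd2, Znrf3, Notum and Apcdd1 were higher by 0.44, 0.46, 0.41 and 0.39. The probe sets of Apcdd1 disagreed. Its brightest, ending in _x_at, differed by 0.02 and dim ones by 0.01 and -0.21, and none of these passed. Others ending in _x_at were higher by 0.49. Nkd1 and Rnf43 were lower by 0.33 and 0.40. Notum, Apcdd1, Nkd1 and Rnf43 had signals within the dim range. Of 33 genes of the polarity and calcium branches 14 were higher, 10 lower and 9 did not pass (median 0.13). For 9 of the 33 the signal lay within the dim range. Plcb4, a phospholipase of calcium signalling, was higher by 2.31-fold, the kinase gene Camk2g by 1.83-fold and the polarity genes Celsr1 and Scrib by 1.78-fold and 1.58-fold. Camk2a was 3.49-fold lower, from 7.55 ± 0.17 to 5.75 ± 0.06 (SD, n = 3), and the polarity genes Fuz and Prickle2 by 1.64-fold and 1.51-fold. All 3 had mean signals within the dim range, and the Prickle2 difference of -0.59 lay inside the span of the receptor probe sets. The other Camk2a probe sets gave -1.42 to -0.06, and the last of these did not pass. Under scaling to the poly-A controls 123 of the 125 genes were higher and 1 was lower.

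**Figure D5:**
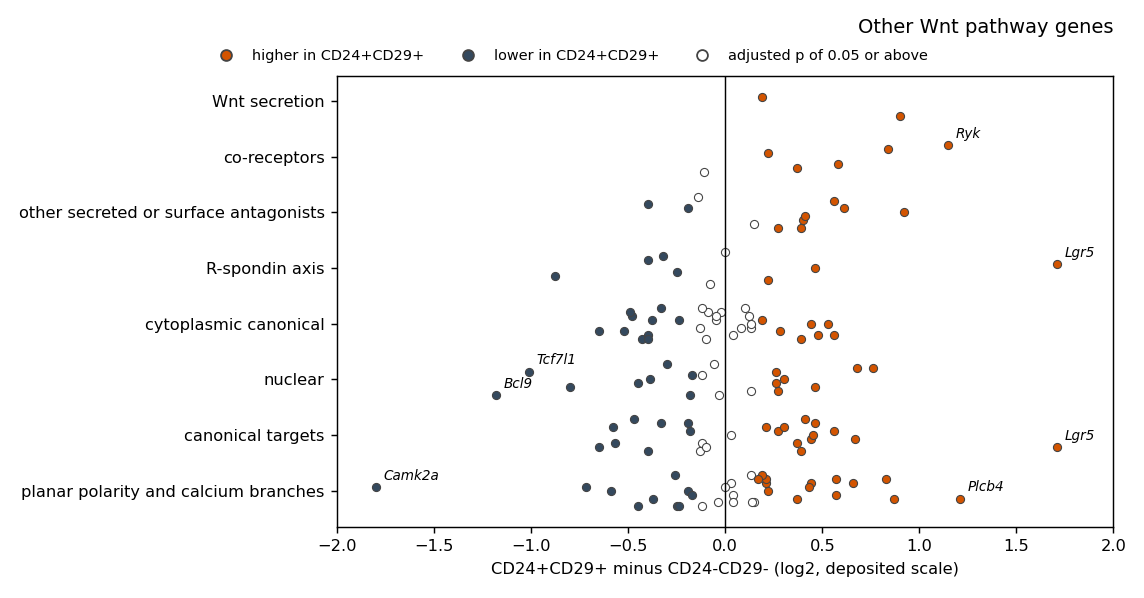
Difference (x axis, log2, deposited scale) of the other Wnt pathway genes by list (y axis; the vertical spread within a list has no meaning), 1 point a gene at its main probe set; filled points passed, open points did not. The secretion and co-receptor lists hold no lower gene, while the intracellular lists hold both; names mark differences of about 2-fold or more, and scaling to the poly-A controls moves all points to the right by 1.22.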

How the data were processed

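RNA of 6 samples was hybridised to Affymetrix Mouse430_2 arrays. The values deposited by the authors are on the log2 scale and, per the submitters' processing notes, were made with RMA and Partek; neither a version nor a setting is given in the sources used here. RMA leaves background in dim probe sets, which compresses their differences, and no detection calls came with the values. Probe sets were named through the platform annotation, whose names can be old: of 45037, 34945 had 1 symbol, 932 several and 9160 none. Entrez identifiers of 34741 were found in RefSeq for GRCm38.p6, with 0 symbols updated.

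All 45037 probe sets entered 1 model without a block (limma 3.58.1, functions lmFit and eBayes, under R 4.3.3), with Benjamini-Hochberg adjustment and a threshold of 0.05. Precision is limited by having 3 arrays a group. The script was tested on simulated data. Of 50 added log2 differences of 0.25 it recovered 1, of 50 of 0.5 it recovered 31, and of those of 1.0 and 2.0 all 50. It called 134 of 45037 simulated probe sets, where 63.9% of the real ones passed, so the shares recovered cannot be carried over. Every gene of the 4 families is named, and those that passed with at least 1.5-fold, and the brightest of each family, are given array by array. Pathway genes with at least 1.5-fold are named; other pathway genes and markers were picked as examples after their values were seen. The members and lists were chosen with earlier results of these data known. Alternatives were other normalizations, scalings, filters and probe set rules, each array left out, and the replicate number as a block.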

Additional observations from a re-analysis of the deposited data

How the results depend on the processing

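The 16 other settings gave 580 values for the 37 genes, of which 514 kept their direction and their side of the threshold, 27 no longer passed, 15 newly passed and 24 changed sign. For 22 genes no setting other than scaling to the poly-A controls changed either. That scaling gave 72 higher and 0 lower probe sets, 36 higher and 0 lower genes, and 35 higher and 0 lower genes with at least 1.5-fold (pathway lists: 123 higher and 1 lower). It turned Dkk1 to 1.00, Dkk4 to 0.90, Fzd10 to 0.98, Fzd3 to 0.21, Fzd5 to 0.11, Fzd9 to 1.15, Sfrp4 to 0.66, Sfrp5 to 1.06, Wnt1 to 0.72, Wnt10b to 0.81, Wnt16 to 1.13, Wnt2b to 0.84, Wnt3a to 0.97, Wnt5a to 0.86, Wnt6 to 0.93, Wnt7a to 0.80, Wnt8a to 0.89, Wnt8b to 0.98, Wnt9a to 1.02 and Wnt9b to 0.78, because it adds the same amount to every difference. Quantile normalization and cyclic loess each left 4 higher genes with at least 1.5-fold and changed the sign of genes that had not passed, Sfrp1 (-0.05 and -0.06) and Wnt16 (0.05 and 0.05); the cause was not tested. Median centring gave 10 higher genes with at least 1.5-fold. Without the dimmest 40% of probe sets, 25 of the 37 genes remained tested, so 12 lower probe sets and 10 lower genes were counted. Averaging over probe sets left 1 lower gene with at least 1.5-fold, Fzd5. The fit over 1 probe set per gene could not be applied to counts of probe sets. Same-numbered arrays of the groups deviated from their group means with correlations of 0.20, -0.04 and 0.05, so the numbers were not taken to pair the samples; CD24+CD29+ replicate 2 correlated best with CD24-CD29- replicate 3 (0.18). With the replicate block 15 genes were higher and 17 lower, the added one being Dkk2 (0.17, limma adjusted p = 0.035). Signals within the dim range limit what can be said of 20 of the 37 genes.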
